A study of Mus musculus with 4 samples.

Results

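The ATP-binding cassette (ABC) transporter genes of large peritoneal macrophages (LPMs) were compared between libraries labelled wild type (WT) and libraries labelled *Rxra*-KO, for a deletion in myeloid cells of the nuclear receptor RXRα. Members were taken by symbol, as every gene of the table named *Abca* to *Abcg* followed by a number and at most 1 letter, which gave 50 genes, and *Abca1* and *Abcg1* were then set apart. The remaining 48 genes, of 18364 in the table, comprised 15 of subfamily A, 10 of B, 10 of C, 4 of D, 1 of E, 3 of F and 5 of G. RNA came from sorted peritoneal macrophages of the F4/80+, CD102+ and MHCII-negative phenotype, from C57BL/6 mice aged 8 weeks, with 2 WT and 2 *Rxra*-KO libraries. The *Rxra*-KO mice carried LysM Cre and *Rxra* fl/fl, so that recombination was driven from the lysozyme 2 locus and covered myeloid cells at large rather than peritoneal macrophages alone, and the study describes the WT mice as *Rxra* fl/fl without Cre, where the labels say only wild type and Rxra-/-. The study also left out RNA-seq samples that did not cluster with their own group. The labels did not say whether the libraries of a group came from separate mice, so p-values cannot be read as measuring the spread between mice. The variance behind the limma p-values came mostly from a trend across all genes and little from these samples.

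ABC proteins are membrane pumps and related ATPases built around a conserved nucleotide-binding domain. Subfamilies A and G move mainly lipids and sterols, subfamily B holds peptide, bile salt, drug and mitochondrial transporters, subfamily C holds the multidrug resistance proteins and the sulfonylurea receptors, and subfamily D serves peroxisomes and lysosomes, whereas the E and F proteins lack membrane-spanning segments and act on ribosomes. In macrophages the family is best known for cholesterol efflux through ABCA1 and ABCG1, whose genes are classical targets of the heterodimer of RXR with LXR.

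The libraries were shallow. WT held 652542 and 947372 reads and *Rxra*-KO 629030 and 1047021 reads, so that 1 read was worth 0.993 to 1.51 in normalised read count, the unit used throughout (reads per 1e6 after scaling of the libraries by the authors). *Rxra* itself did not fall in the libraries that carry the *Rxra*-KO label, with 20 and 28 reads in WT against 33 and 77 in *Rxra*-KO (log2 fold change 0.99, limma adjusted p = 0.183), and reads per exon were not analysed here, so the deletion could not be checked. *Lyz2*, the locus that carries the Cre, was at 12927 ± 1890 in WT against 6308 ± 111 in *Rxra*-KO (SD, n = 2 each, limma adjusted p = 0.00163, and 0.272 without WT replicate 1 or 0.0583 without WT replicate 2). Cell markers moved with the genotype. The summed level of 8 LPM markers was 49682 and 48935 in WT against 25380 and 27430 in *Rxra*-KO, with 6 of them called lower. Most of this sum came from *Prg4* (mean 29056 in WT against 15848 in *Rxra*-KO) and from *Lyz2*, the Cre locus itself. *Timd4* (log2 fold change -0.80) was not called. Nor was *Csf1r* (0.36), which was higher in both *Rxra*-KO libraries than in both WT libraries. The summed level of 7 small peritoneal macrophage (SPM) markers was 366 and 109 in WT against 4329 and 5806 in *Rxra*-KO, with all 7 called higher. These 7 SPM genes are the ones the study named as higher from these same libraries, so their calls follow from the choice of list. *Gata6* and *Icam2* of the LPM list had also been named by the study, as lower. Among 6 dendritic cell markers, which summed to 53.0 and 57.5 in WT against 97.9 and 118 in *Rxra*-KO, only *Cd209a* was called. It was at 22.0 and 14.6 in WT against 65.5 and 80.0 in *Rxra*-KO, and the rise in the sum was that of this gene. Of the rest, which had few reads, *Itgax* and *Clec9a* were lower in both *Rxra*-KO libraries and *Flt3* was higher in both. None of the B cell, T cell, mast cell, neutrophil, or mesothelial and fibroblast markers in the table was called by limma, and their summed levels per library were 10.6 to 22.6, 74.0 to 113, 16.4 to 29.5, 98.6 to 160 and 51.9 to 54.1. These lists were not whole, since *Pax5*, *Ighm*, *Cd3g*, *Cpa3*, *S100a8*, *S100a9*, *Ly6g*, *Krt19* and *Dcn* had no entry in the table and could not be read. Most of the neutrophil sum was *Csf3r*. The part of the SPM, LPM and dendritic cell markers in the transporter results was not tested, and in bulk RNA fewer cells of a type cannot be told apart from less RNA per cell.

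Across the family 2 of 48 members (4.17%) differed between the genotypes, the glutathione-conjugate exporter gene *Abcc1* and the subfamily A gene *Abca9*, both higher in *Rxra*-KO. A call required a limma adjusted p under 0.05 over all 18364 genes and a difference of 0.6 or more in either direction on the log2 scale, with fold changes on the log2(normalised read count + 1) scale, which understates changes of low genes. Of all genes, 421 (2.29%) were called, 243 of them higher (1.32%) and 178 lower (0.969%). Both called members were among the 5 with a mean of at least 100 reads per library, a class in which 13.7% of the 1405 genes of the table were called, whereas none of the 20 members with 10 to 100 reads was called, against 2.87% of such genes, and none of the 23 below 10 reads, against 0.147%. At an unadjusted limma p under 0.05 there were 7 members (14.6%), against 10.1% of all genes. *Abcc1* and *Abca9* had already been named by the study from these same libraries, so their direction here is not independent evidence.

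The fold changes of the members lay evenly on both sides of 0. Of the 48 log2 fold changes 24 were above and 24 below 0, with a median of -0.02 (-0.18 without WT replicate 2) against 0.02 over all genes, and a median absolute value of 0.45 against 0.40. The groups did not overlap for 24 members (50%), 11 of them higher and 13 lower in *Rxra*-KO, where 38.1% of all genes did not overlap (18.8% higher and 19.3% lower). The summed level of the 48 genes was 1672 and 1522 in WT against 1736 and 1937 in *Rxra*-KO. Without *Abcc1* these sums were 1583 and 1466 against 1479 and 1639, and the groups overlapped.

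**Figure D1:**
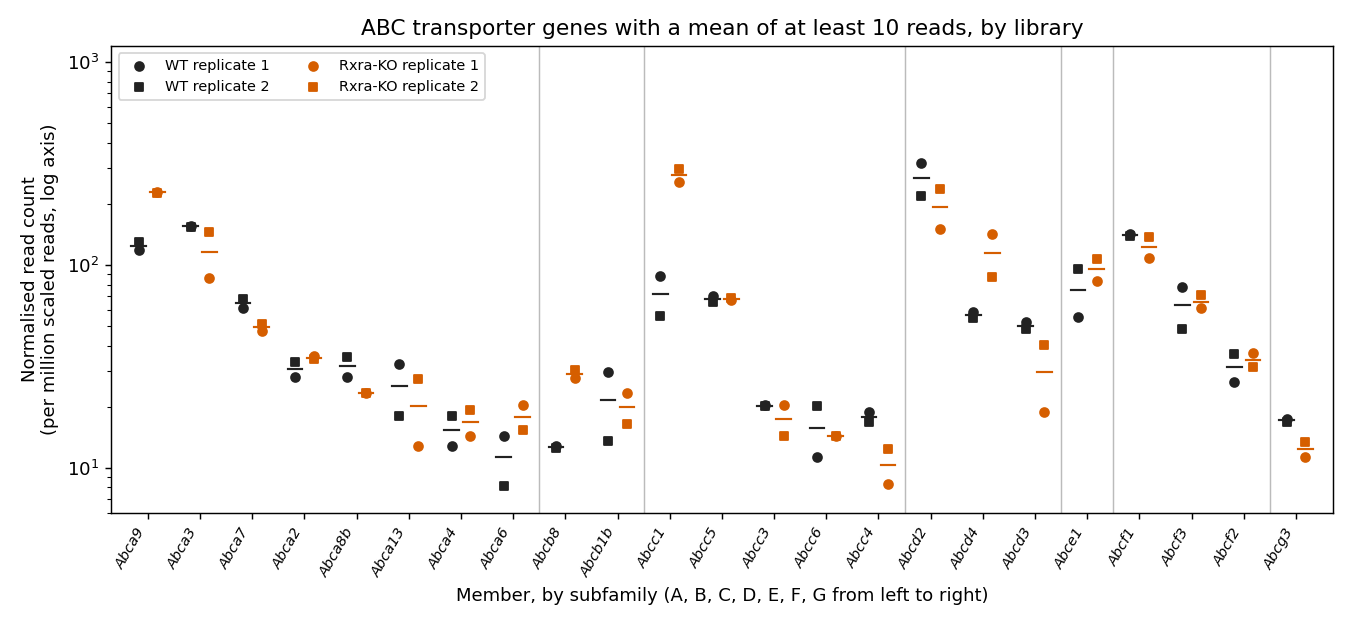
Normalised read count (log axis) of 23 ABC transporter genes with a mean of at least 10 reads, in each of the 4 libraries, with bars for the group means of 2 libraries; vertical lines part the subfamilies. The *Rxra*-KO points of *Abcc1* and *Abca9* lie above both WT points, and *Abca2*, *Abca6*, *Abcb8* and *Abcd4* also separate upwards. *Abca3*, *Abca7*, *Abca8b*, *Abcc4*, *Abcd3*, *Abcf1* and *Abcg3* separate downwards, and *Abcc5* sits at about 68.0 in both groups. Of all genes, 38.1% separate in either direction.

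The plot of normalised read counts by library shows which genes carry the family in these cells. The 5 members with the most reads supplied 50.3% of the family's reads, and the median member had 10.5 reads in a library. Compared per kilobase of each gene's longest annotated protein-coding transcript, the highest mean levels in WT were those of *Abcd2*, a peroxisomal importer of very-long-chain acyl-CoA, at 48.4 ± 12.6 per kb (SD, n = 2, as for all values in this paragraph) and of the translation factor gene *Abcf1* at 44.3 ± 0.727 per kb, a pair whose levels did not differ beyond their spread. *Abca3* (23.9 ± 0.0661) and *Abcd4* (23.5 ± 1.03) followed at like levels per kb. In *Rxra*-KO the 5 highest levels per kb were those of *Abcd4* at 47.5 ± 16.2, *Abcc1* at 40.8 ± 4.24, *Abcf1* at 38.8 ± 6.69, *Abca9* at 35.6 ± 0.129 and *Abcd2* at 34.9 ± 11.1, and neighbours in this order were within each other's spread. In this order by level per kb *Abcc1* stood in place 11 in WT and place 2 in *Rxra*-KO, *Abca9* in places 7 and 4, and *Abcd2* in places 1 and 5.

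*Abcc1* encodes MRP1, which exports glutathione conjugates including leukotriene C4. Its normalised read count was 88.6 and 55.9 in the WT libraries (58 and 51 reads) and 257 and 297 in the *Rxra*-KO libraries (170 and 299 reads). Both *Rxra*-KO libraries were far above both WT libraries. The means were 72.2 ± 23.1 and 277 ± 28.8 (SD, n = 2 each), a ratio of 3.84, with a log2 fold change of 1.96 ± 0.27 (SE, 95% interval 1.43 to 2.48, limma adjusted p = 1.42e-09). *Abcc1* supplied 33.3% (exact 95% interval 26.4 to 40.9%) and 25.6% (19.7 to 32.3%) of the subfamily C reads in WT, against 64.4% (58.3 to 70.2%) and 66.0% (61.4 to 70.4%) in *Rxra*-KO. These intervals treat each read as an independent count and leave out the spread between libraries. The reads carried no molecular identifiers, so amplified copies could not be told apart, and the intervals may be too narrow even for counting error. Within each library the ratio of *Abcc1* to *Abcc5*, a pair set side by side after their values were seen, was 1.26 and 0.851 in WT against 3.83 and 4.31 in *Rxra*-KO, a contrast that does not rest on the scaling between libraries.

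No other subfamily C gene was called. *Abcc5*, an exporter of cyclic nucleotides, was at 70.4 and 65.6 in WT against 67.0 and 69.0 in *Rxra*-KO, so the groups overlapped and the 95% interval of its log2 fold change ran from -0.62 to 0.62. *Abcc4*, which exports cyclic nucleotides and prostaglandins, was at 18.9 and 16.8 against 8.28 and 12.4 (log2 fold change -0.76, limma adjusted p = 0.768). *Abcc3*, an exporter of organic anions, was at 20.4 and 20.1 against 20.3 and 14.4, and *Abcc6*, the gene mutated in pseudoxanthoma elasticum, at 11.4 and 20.1 against 14.3 and 14.4. Both overlapped between the groups. Of the subfamily C genes under 10 reads, *Abcc10*, a multidrug resistance protein gene, had 14 and 12 reads in WT against 2 and 8 in *Rxra*-KO, a difference of -1.45 on the log2 scale (95% interval -2.74 to -0.15) with a limma unadjusted p of 0.0287 and an adjusted p of 0.383. *Abcc2*, the canalicular anion exporter of liver, had 6 and 5 reads in WT against 10 and 18 in *Rxra*-KO (log2 fold change 1.05, limma adjusted p = 0.612). The sulfonylurea receptor genes *Abcc8* (11 and 9 against 3 and 11 reads) and *Abcc9* (6 and 10 against 3 and 7 reads) and *Abcc12* (1 and 1 against 5 and 1 reads) were near the limit of what this depth can resolve. The summed level of subfamily C was 246 ± 35.2 in WT against 430 ± 35.3 in *Rxra*-KO (SD, n = 2 each). Without *Abcc1* it was 182 and 165 in WT against 148 and 157 in *Rxra*-KO, so the direction of the subfamily's sum turned when that single gene was left out.

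**Figure D2:**
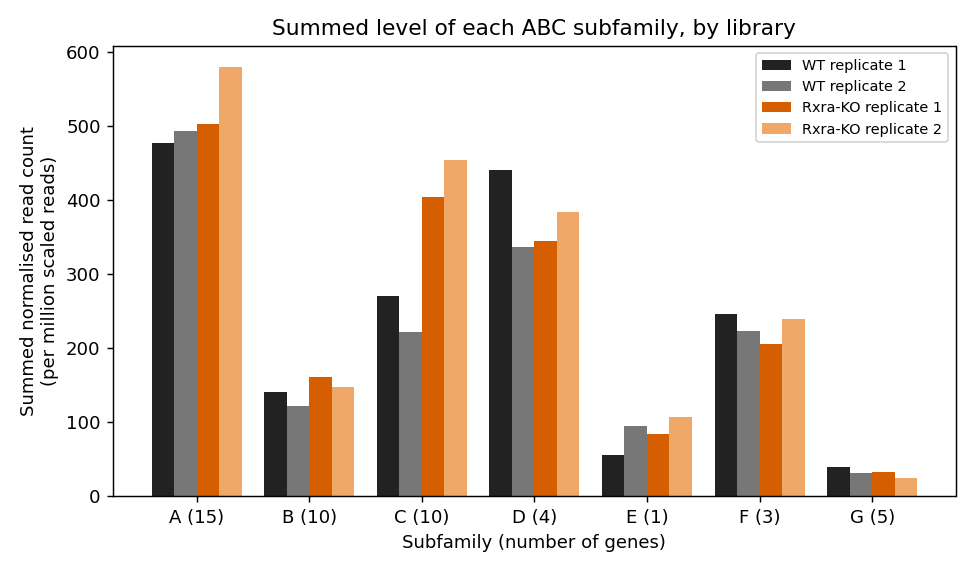
Summed normalised read count of each ABC subfamily in each of the 4 libraries, with the number of genes in parentheses; each bar is 1 library and carries no error. The *Rxra*-KO bars of subfamily C, at 405 and 455, lie above the WT bars at 271 and 221, and those of subfamily D overlap with WT.

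The bars of summed levels by subfamily separated the genotypes in 3 subfamilies. Subfamily A was at 478 and 493 in WT against 504 and 580 in *Rxra*-KO, subfamily B at 141 and 121 against 161 and 147, and subfamily C as above. Without *Abca9* the sum of subfamily A was 359 and 363 in WT against 276 and 353 in *Rxra*-KO, so its direction also turned when a single gene was left out. Those of D (441 and 337 against 345 and 384), E (55.3 and 94.9 against 83.6 and 107), F (246 and 223 against 206 and 240) and G (40.1 and 30.9 against 32.4 and 24.3) overlapped. Median log2 fold changes were -0.20 in A, 0.08 in B, -0.15 in C, 0.18 in D, 0.10 in F and -0.44 in G, and 0.38 for the single gene of E.

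*Abca9* belongs to a group of closely related subfamily A genes that stand side by side on mouse chromosome 11 in the order *Abca8b*, *Abca8a*, *Abca9*, *Abca6* and *Abca5*. The 250 bases before the RefSeq start (GRCm38.p6) are shown for *Abca9*, the called gene, at chr11:110168154-110168403 on the minus strand, for its neighbour *Abca8b* at chr11:109995846-109996095 on the minus strand, and for *Abcc2* at chr19:43782058-43782307 on the plus strand as an example of a window with the core hexamer AGGTCA, which nuclear receptors of the RXR family and their partners bind in repeats and which is in capitals.
Abca9: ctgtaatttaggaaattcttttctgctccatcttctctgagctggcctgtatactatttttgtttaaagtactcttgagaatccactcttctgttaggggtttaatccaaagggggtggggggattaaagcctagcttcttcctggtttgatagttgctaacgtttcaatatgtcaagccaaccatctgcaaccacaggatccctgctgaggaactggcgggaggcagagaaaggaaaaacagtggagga
Abca8b: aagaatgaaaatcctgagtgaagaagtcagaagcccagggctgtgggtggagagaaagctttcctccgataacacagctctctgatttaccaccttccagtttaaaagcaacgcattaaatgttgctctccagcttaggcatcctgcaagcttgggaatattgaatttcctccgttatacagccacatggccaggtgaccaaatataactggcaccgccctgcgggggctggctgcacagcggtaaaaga
Abcc2: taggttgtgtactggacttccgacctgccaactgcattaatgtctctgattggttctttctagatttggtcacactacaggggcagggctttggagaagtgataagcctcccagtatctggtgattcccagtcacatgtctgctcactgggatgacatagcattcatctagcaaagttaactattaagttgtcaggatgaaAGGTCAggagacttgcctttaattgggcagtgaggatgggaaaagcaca
The windows of *Abca9* and *Abca8b* held neither AGGTCA nor its variant GGGTCA on either strand. AGGTCA was found in 14.02% of all 32851 windows and in 7 of the 44 windows of the 37 members with an entry. These 7 belonged to 5 members, *Abcb6*, *Abcb11*, *Abcc2*, *Abcc10* and *Abcg2*. GGGTCA was in 11.6% of all windows and in 5 of the 44 member windows, of 5 members. The called gene *Abcc1* had no entry. A match is a run of letters and not a binding site, and its absence says only that these letters are not in the window.

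*Abca9* was at 119 and 130 in WT (78 and 119 reads) against 228 and 227 in *Rxra*-KO (151 and 228 reads). The pairs of libraries were tight and apart, with means of 124 ± 7.62 and 228 ± 0.822 (SD, n = 2 each) and a log2 fold change of 0.87 ± 0.26 (SE, 95% interval 0.37 to 1.37, limma adjusted p = 0.0372). The call rested on all 4 libraries, since leaving out any 1 of them left a log2 fold change of 0.81 to 0.93 with a limma adjusted p of 0.168 to 0.267. *Abca9* supplied 25.3% and 26.6% of the subfamily A reads in WT against 46.2% and 39.6% in *Rxra*-KO. Its neighbours on the chromosome had fewer reads. *Abca8b* was at 28.0 and 35.3 in WT and 23.3 in each *Rxra*-KO library (log2 fold change -0.41, 95% interval -1.27 to 0.44), and *Abca6* at 14.4 and 8.14 against 20.3 and 15.4 (0.66, -0.48 to 1.80), and neither was called by limma. *Abca8a* had 4 and 4 reads against 4 and 3, and *Abca5* 1 and 2 against 1 and 1. The ratio of *Abca9* to *Abca8b* within a library was 4.24 and 3.68 in WT against 9.77 and 9.72 in *Rxra*-KO, and that of *Abca9* to *Abca6* was 8.26 and 15.9 against 11.2 and 14.7, which overlapped. Both pairs were set side by side after their values were seen.

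None of the other subfamily A genes was called. *Abca3*, which loads surfactant lipids into lamellar bodies in lung, was at 155 and 155 in WT against 86.6 and 145 in *Rxra*-KO, without overlap but with a log2 fold change of -0.47 (95% interval -0.998 to 0.07, limma adjusted p = 0.602). *Abca7*, a phospholipid transporter linked to phagocytosis, was at 61.3 and 67.8 against 47.4 and 51.1 (-0.38, limma adjusted p = 0.816). Both *Rxra*-KO libraries were below both WT libraries for these genes, by amounts that limma did not call. The endolysosomal *Abca2* was at 28.0 and 33.1 against 35.4 and 34.3, with a 95% interval of the log2 fold change from -0.61 to 0.98. *Abca13* (32.6 and 17.9 against 12.8 and 27.3) and *Abca4*, the retinoid transporter of photoreceptors (12.9 and 17.9 against 14.3 and 19.4), overlapped between groups. The remaining subfamily A genes, *Abca12*, *Abca14*, *Abca15*, *Abca16* and *Abca17*, had at most 9 reads in any library, and none was called. The largest difference among them was that of *Abca16*, with 0 and 4 reads in WT against 4 and 9 in *Rxra*-KO (log2 fold change 1.49, limma adjusted p = 0.540).

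Subfamily D, whose proteins serve peroxisomes and lysosomes, had members that lay on opposite sides, none of them called. *Abcd4*, which acts with LMBRD1 in the export of cobalamin (vitamin B12) from lysosomes, was at 58.3 and 54.8 in WT against 142 and 86.9 in *Rxra*-KO. The *Rxra*-KO libraries were above WT but far apart from each other, with means of 56.5 ± 2.48 and 115 ± 39.2 (SD, n = 2 each), a log2 fold change of 0.96 ± 0.30 (SE, 95% interval 0.36 to 1.56) and a limma adjusted p of 0.0683. Without *Rxra*-KO replicate 2 the log2 fold change of *Abcd4* was 1.32 with a limma adjusted p of 0.0364, which would be called, and the lowest value on leaving out 1 library was 0.61. *Abcd3*, the peroxisomal importer known as PMP70, was at 52.2 and 48.3 against 18.8 and 40.2 (log2 fold change -0.84, 95% interval -1.60 to -0.08, with a limma unadjusted p of 0.0308 and an adjusted p of 0.395). *Abcd2* was at 317 and 219 against 150 and 237, so the groups overlapped (-0.48, 95% interval -0.97 to 0.01, limma adjusted p = 0.503). *Rxra*-KO replicate 1 held the highest value of *Abcd4* and the lowest of *Abcd2* and *Abcd3* among the 4 libraries. The share of subfamily D reads from *Abcd2* was 72.3% (exact 95% interval 66.8 to 77.4%) and 65.0% (59.4 to 70.4%) in WT and 43.6% (37.1 to 50.3%) and 61.8% (56.8 to 66.7%) in *Rxra*-KO, and that from *Abcd4* was 13.1 and 16.2% against 41.4 and 22.6%.

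Subfamily B held no called gene. *Abcb8*, a mitochondrial inner membrane transporter linked to iron export, was at 12.9 and 12.5 in WT against 27.9 and 30.3 in *Rxra*-KO (8 and 11 against 18 and 30 reads). The groups were apart and the pairs close, with a log2 fold change of 1.14 ± 0.50 (SE, 95% interval 0.15 to 2.12) and a limma unadjusted p of 0.0241, which became 0.349 after adjustment over all genes. The P-glycoprotein gene *Abcb1b* was at 29.5 and 13.6 against 23.3 and 16.4, and overlapped. *Abcb1b* shared 27.0% of its 31-base words with other genes of the annotation, mostly with its paralogue *Abcb1a* (1 and 8 against 1 and 4 reads), so reads of this pair may be split between them. Such sharing reached 5% in 10 of the 48 members, among them *Abca3* (16.4%), *Abcf2* (8.94%), *Abcf1* (7.12%), *Abce1* (6.17%) and *Abca8b* (5.09%), and was 0.803% for *Abca9* and 0% for *Abcc1*. The heme-linked *Abcb10* had 10 and 8 reads in WT against 5 and 5 in *Rxra*-KO (log2 fold change -0.76, limma adjusted p = 0.821). The other members, *Abcb4*, *Abcb5*, *Abcb6*, *Abcb9* and *Abcb11*, had 1 to 15 reads in a library, overlapped between groups, and for *Abcb6* 91.7% of the 31-base words were shared with another annotated gene.

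The E and F genes, which code for soluble ribosome-associated ATPases, were among the better measured members. *Abce1*, the ribosome recycling factor gene, was at 55.3 and 94.9 in WT against 83.6 and 107 in *Rxra*-KO, and overlapped (log2 fold change 0.38, 95% interval -0.22 to 0.97). *Abcf1* was at 142 and 138 against 108 and 138, the *Rxra*-KO libraries lying just below WT (-0.20, 95% interval -0.73 to 0.33, limma adjusted p = 0.918). *Abcf2* (26.5 and 36.3 against 36.9 and 31.3) and *Abcf3* (78.0 and 48.3 against 61.0 and 71.0) overlapped. These 4 genes and *Abca2*, *Abca3*, *Abcc5* and *Abcd2* were the 8 members (16.7%, against 17.96% of all genes) whose 95% interval lay within a 2-fold change in either direction. No member's interval lay within 1.5-fold.

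Subfamily G, left without *Abcg1*, was barely detected. *Abcg3*, a rodent gene related to *Abcg2*, had the most reads, at 17.4 and 16.8 in WT against 11.3 and 13.4 in *Rxra*-KO (log2 fold change -0.44, limma adjusted p = 0.909). *Abcg5* and *Abcg8* encode the 2 chains of the sterol exporter of liver and intestine and are neighbours on chromosome 17. *Abcg5* had 1 and 4 reads in WT against 4 and 5 in *Rxra*-KO, and *Abcg8* 5 and 2 against 0 and 0. The limma p of *Abcg8* was 0.0207 unadjusted and 0.324 adjusted. With *Rxra*-KO set to a floor of 3 reads per library, the WT mean was 1.30-fold that floor. This is no lower bound on the difference, since WT replicate 2, at 2 reads, lay under the floor itself. With *Abcg8* set to this 1.30-fold difference the median over the members was still -0.02. *Abcg2*, the breast cancer resistance protein gene, had 3 and 1 reads against 7 and 1, and the sterol transporter gene *Abcg4* 4 and 4 against 1 and 3. Another 4 members, *Abca5*, *Abca14*, *Abcb9* and *Abcb11*, had at most 3 reads in every library, so no fold is given for them and they are left out of the plot of intervals.

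**Figure D3:**
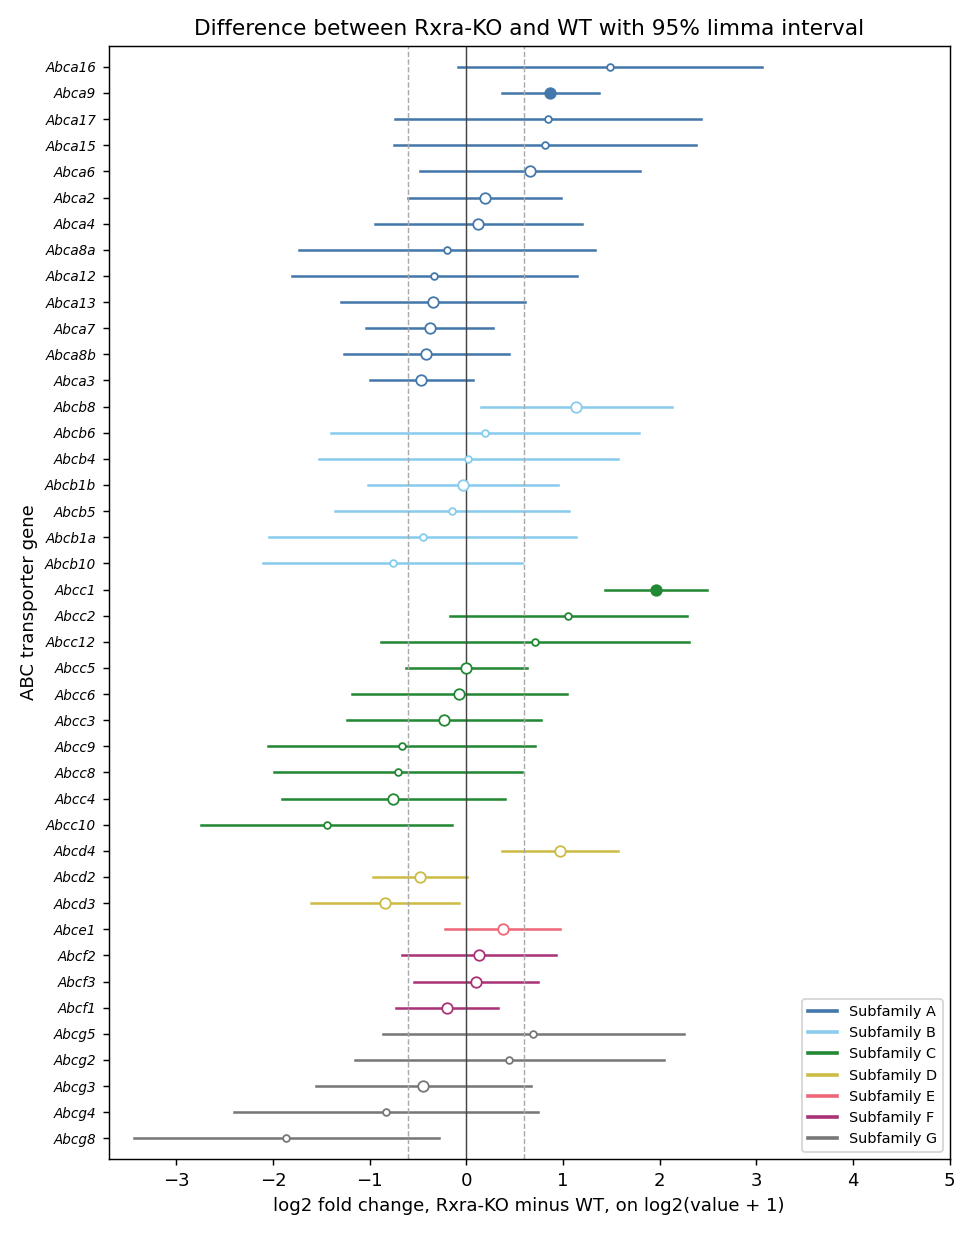
Log2 fold change (*Rxra*-KO minus WT, on log2 of the normalised read count + 1) of 42 ABC transporter genes with 95% limma intervals, ordered within subfamily; filled points are called, open points are not, small points have a mean under 10 reads, and dashed lines mark 0.6 in either direction. Intervals exclude 0 for 7 genes, and only *Abcc1* and *Abca9* are filled. The value of *Abcg8*, with 0 reads in both *Rxra*-KO libraries, is a fitted one and no bound.

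The plot of intervals shows how depth set the precision. The half-width of the 95% interval, written as a fold, had a median of 1.44 for the members with at least 100 reads, 1.87 for those with 10 to 100 reads and 2.97 for those below 10 reads. The 7 members with an unadjusted limma p under 0.05 were *Abcc1*, *Abca9*, *Abcd4*, *Abcg8*, *Abcb8*, *Abcc10* and *Abcd3*, 4 higher and 3 lower in *Rxra*-KO, and the last 5 did not pass adjustment.

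**Figure D4:**
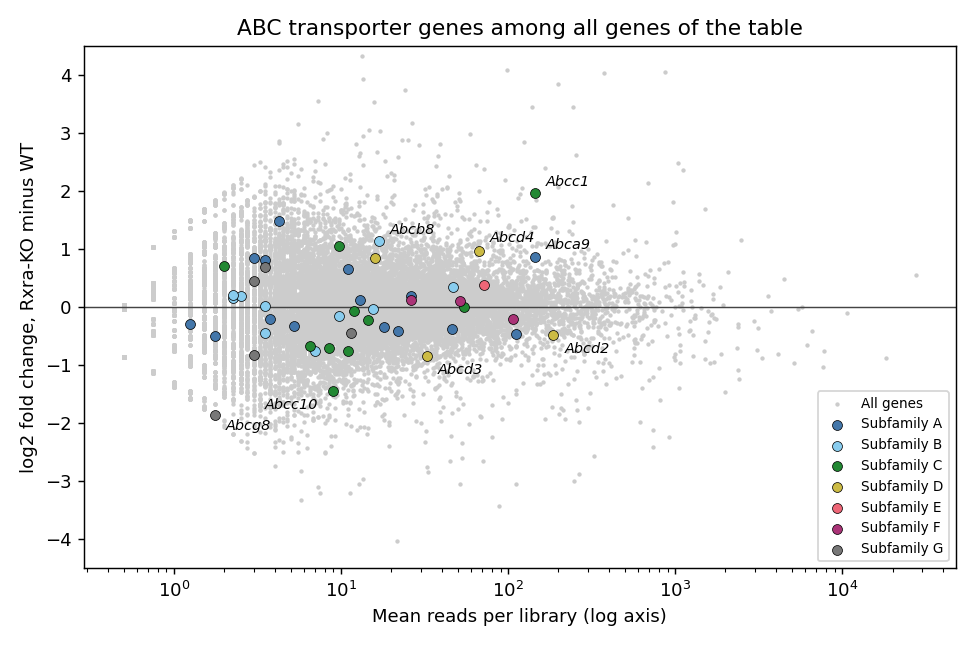
Log2 fold change (*Rxra*-KO minus WT) against mean reads per library (log axis) for all 18364 genes (grey) and the 48 ABC transporter genes (coloured by subfamily); 15 genes lie beyond the vertical range. Most ABC transporter genes lie inside the grey cloud at their depth, and *Abcc1* stands towards its upper edge.

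Against all genes, as the scatter by read depth shows, *Abcc1* ranked 236 by absolute log2 fold change and 48 by limma p among 18364 genes, and *Abca9* ranked 3542 and 392. The sterol exporter genes set apart were measured in the same libraries, and the study had named them too. *Abca1* was at 101 and 40.7 in WT against 147 and 205 in *Rxra*-KO (log2 fold change 1.42, limma adjusted p = 0.00019, but 0.78 with an adjusted p of 0.406 without WT replicate 2 and 1.18 with 0.0773 without *Rxra*-KO replicate 2) and *Abcg1* at 182 and 76.5 against 195 and 241 (0.87, limma adjusted p = 0.0514, and 1.49 with 0.000847 without WT replicate 1). ABC genes whose symbols do not follow the family pattern were not members. *Tap1*, a chain of the antigen peptide transporter, was lower, at 82.5 and 154 in WT against 33.9 and 64.1 in *Rxra*-KO (-1.25, limma adjusted p = 0.00655, but -0.81 with 0.562 without WT replicate 2 and -0.80 with 0.541 without *Rxra*-KO replicate 1), whereas *Tap2*, its partner chain, was at 88.6 and 113 against 65.5 and 64.1 (-0.62, limma adjusted p = 0.449). *Cftr*, the chloride channel gene, had 11 and 4 reads against 6 and 8.

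Genes that work with the transporters were read from 8 lists, of which 90 genes were in the table, and 3 of them (3.33%) were called, all higher in *Rxra*-KO, where 2.29% of all genes were called and 1.32% called higher. Of 15 sterol handling genes 1 was called, *Pltp*, the phospholipid transfer protein gene, at 119 and 80.8 in WT against 246 and 265 in *Rxra*-KO (log2 fold change 1.37, limma adjusted p = 4.44e-05), and the median of the list was 0.02. Of 7 genes of lysosomal cobalamin handling, median 0.36, 1 was called, *Lmbrd1*, the partner of *Abcd4*, at 44.7 and 45.0 against 109 and 81.9 (1.06, 95% interval 0.43 to 1.69, limma adjusted p = 0.0478). Of 17 genes of peroxisomal import and β-oxidation, median 0.12, 1 was called, *Hsd17b4*, the D-bifunctional protein gene, at 74.9 and 54.8 against 132 and 136 (1.05, limma adjusted p = 0.0213). These genes were higher in both *Rxra*-KO libraries than in both WT libraries. The call of *Pltp* held whichever library was left out, that of *Lmbrd1* was lost without any 1 of the 4 (limma adjusted p = 0.103 to 0.675), and that of *Hsd17b4* without WT replicate 2 (0.394) or either *Rxra*-KO library (0.209 and 0.211). No gene was called by limma among 12 of glutathione and leukotriene synthesis, which supply substrates of *Abcc1* (median 0.16), 8 of peptide loading (-0.20), 19 of mitochondrial heme and iron-sulfur clusters (-0.02), or 11 of ribosome recycling and the GCN2 pathway (0.04), where the median over all genes was 0.02. In the glutathione and leukotriene list 7 log2 fold changes were above 0 and 5 below. Its lowest limma p was that of *Gsr*, which was lower, at 65.9 and 47.2 in WT against 18.8 and 29.3 in *Rxra*-KO (-1.21, 95% interval -1.98 to -0.44, limma adjusted p = 0.0789). *Kcnj8*, a potassium channel partner of the sulfonylurea receptors, had at most 3 reads in every library, so no fold is given for it.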

How the data were processed

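RNA of sorted LPMs was amplified with an ultra-low input kit and sequenced by the study without molecular identifiers. The authors deposited 1 table of normalised signal per gene, with kallisto 0.43.0 and limma named in the submitters' processing notes. Its values are read counts scaled to library totals adjusted by TMM factors. These notes name the human build GRCh38 for mouse libraries, which was not resolved here. Groups came from the labels (2 WT, 2 *Rxra*-KO). All values (100%, tolerance 0.001) gave whole reads once the normalisation was undone, and limma voom with TMM factors on these reads returned the table within a relative 9.94e-10, and the filter (a value of at least 1 in 2 libraries) removed 0 genes.

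The main test was limma 3.58.1 (R 4.3.3) with a mean-variance trend on log2(value + 1), with Benjamini-Hochberg adjustment over 18364 genes. With 2 libraries per group 2 residual degrees of freedom remain, to which limma added 227 from the trend across genes, and an exact two-sided permutation test cannot go below 0.333. edgeR 4.0.16 and DESeq2 1.42.0 on the recovered reads were among 16 alternatives. The tests across genes were tested on simulated data. Called members, members with an unadjusted p under 0.05, members with at least 10 reads, and called partner genes were named with values, and all other members were counted, the lowest by name, except that the values of 2 members are not reported here, although the counts, sums and medians hold them. Members, lists and tests were chosen with earlier results of these data known. Levels per kilobase and shared 31-base words used GENCODE mouse transcripts, and promoters RefSeq GRCm38.p6.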

Additional observations from a re-analysis of the deposited data

How the results depend on the processing

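The log2 fold changes of *Abcc1* and *Abca9* were positive under every alternative run, but their calls were not equally firm. Without the mean-variance trend limma called 0 genes, 0 members and 0 partner genes (1579 genes and 4 members had an unadjusted p under 0.05), and the adjusted p was 0.472 for *Abcc1* and 0.619 for *Abca9*. DESeq2 called 246 genes, 1 member (*Abcc1*) and 1 partner gene, and gave an adjusted p to only 14 of the 48 members. Leaving out 1 library at a time (the lone library of an arm is then assumed to vary like the others) gave 236 to 377 called genes, the lowest without WT replicate 2 and 244 without *Rxra*-KO replicate 1, 1 to 2 members, 1 to 4 partner genes and a member median of -0.18 to -0.0022. *Abcc1* stayed called throughout (log2 fold change 1.63 to 2.29). Of the 27 members named with a test, 18 never reversed. Leave-one-out ranges that crossed 0 were -0.87 to 0.17 for *Abca13*, -0.10 to 0.35 for *Abca4*, -0.57 to 0.50 for *Abcb1b*, -0.46 to 0.0049 for *Abcc3*, -0.0493 to 0.0505 for *Abcc5*, -0.46 to 0.31 for *Abcc6*, -0.0069 to 0.76 for *Abce1*, -0.0945 to 0.35 for *Abcf2* and -0.24 to 0.44 for *Abcf3*. *Abcc5* was also at -0.0212 with DESeq2 size factors and -0.0199 with DESeq2. *Cftr* reached 0.10 with voom and -0.87 to 0.78 on leaving out a library. *Lmbrd1* also lost its call with DESeq2 size factors (adjusted p = 0.0525), library totals (0.0522), the filter at 10 (0.0581), voom (0.0850), DESeq2 (0.226) and no trend (0.552). The causes were not tested. With the replicate block, 540 genes, 3 members (with *Abcd4*, limma adjusted p = 0.0299) and 4 partner genes were called, but the libraries share only a number. Their deviations correlated at 0.0635 over 8850 genes and at 0.265 over the members, with 2 pairs. Of the genes called, 57.7% were higher, against 70.3% without WT replicate 2 and 46.7% without *Rxra*-KO replicate 2. Dropping the filter changed nothing, as it removed no gene.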

Other observations

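In the partner lists, 2 more genes that were not called were picked after their values were seen, from among others with an unadjusted limma p under 0.05. *Scarb1*, the HDL receptor gene, had 19 and 13 reads in WT against 3 and 2 in *Rxra*-KO (log2 fold change -2.23, 95% interval -3.57 to -0.88, limma adjusted p = 0.0536), the opposite direction to *Pltp* and *Abca1*. *Crot*, the peroxisomal carnitine octanoyltransferase gene, was at 126 and 124 in WT against 58.0 and 96.8 in *Rxra*-KO (-0.73, limma adjusted p = 0.250).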
